A study of Mus musculus with 16 samples.

Results

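Serine synthesis and folate one-carbon metabolism were followed through 9 genes, chosen by symbol, of the 23284 symbols in the files: Phgdh, Psat1 and Psph (serine synthesis), Shmt1 and Mthfd1 (cytosolic folate enzymes), and Shmt2, Mthfd1l, Mthfd2 and Mthfd2l (mitochondrial folate enzymes). All 9 were found and all 9 passed the filter on low counts. Expression was measured by RNA sequencing of lung tumors from mice whose strain is given as 129/SvJ and C57BL/6, 9 labelled RPMax-/- (Max null below) and 7 labelled RPMaxWT (Max wild-type below). Both groups received adenovirus carrying CMV-driven Cre recombinase through the trachea, so recombination was not limited to 1 cell type by the promoter. The prefix RP commonly stands for loss of Rb1 and Trp53 together, which gives small cell lung cancer in mice, although the labels do not spell it out; it is shared by both groups. The labels give no age, no tumor time and no mouse of origin, and the p-values below therefore rest on the spread among 16 samples that may not be separate animals. MAX is the partner that MYC, MYCL and MYCN need to bind DNA.

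PHGDH, PSAT1 and PSPH convert a glycolytic intermediate to serine in successive steps. The SHMT enzymes split serine into glycine and a folate-bound one-carbon unit, SHMT1 in the cytosol and SHMT2 in mitochondria. In mitochondria MTHFD2 or MTHFD2L oxidizes that unit, and MTHFD1L then releases it as formate. In the cytosol MTHFD1, with 3 activities in 1 protein, takes up formate for purine and thymidylate synthesis or runs the oxidation itself. MTHFD2 is known for high expression in embryonic and tumor tissue, and MTHFD2L for expression in adult tissue.

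Reads in genes ranged from 8664862 to 15114271 per tumor, and the 9 genes held between 19 and 2516 reads per library. The multiply aligned share is the tally of reads aligned to more than 1 place over all tallies of a file. A read may enter that tally once per alignment, so it need not be a share of reads. It was 9.17% to 11.8% in null and 12.3% to 22.2% in wild-type libraries, with no overlap. The highest were wild-type tumors 7, 4 and 2 (22.2%, 20.8% and 16.01%). Library quality and labelled genotype therefore cannot be told apart by this measure, and calls below are also given without those 3 tumors. Max itself was at 74.4 ± 5.98 CPM (counts-per-million over reads in genes, with library sizes scaled by TMM; SD, n = 9) in tumors labelled null and 65.8 ± 7.97 CPM (n = 7) in wild-type, a whole-gene count that cannot check the deletion. The neuroendocrine marker Calca was present throughout, at 138 CPM or more in all 16 tumors. In bulk tumors, fewer cells of a type and less RNA per cell cannot be told apart.

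The 2 cytosolic enzymes had the highest fitted differences of the 9 genes, and the upstream sequence of each is printed because MAX dimers bind the E-box CACGTG. The RefSeq promoter windows of build GRCm38.p6 (250 bases before and 50 after the annotated start; all 9 genes matched, Psat1 with 2 windows) were searched on both strands for CACGTG, for the E-box variants CACGCG and CATGTG, and for TGATGNAA, a core of elements bound by ATF4. The sequences below are the 250 bases before the start, 5′ to 3′ on the strand of the gene, for Mthfd1 at chr12:76254982-76255231 (plus strand) and Shmt1 at chr11:60811266-60811515 (minus strand). Capitals mark CACGCG, here read as its reverse complement CGCGTG.
Mthfd1: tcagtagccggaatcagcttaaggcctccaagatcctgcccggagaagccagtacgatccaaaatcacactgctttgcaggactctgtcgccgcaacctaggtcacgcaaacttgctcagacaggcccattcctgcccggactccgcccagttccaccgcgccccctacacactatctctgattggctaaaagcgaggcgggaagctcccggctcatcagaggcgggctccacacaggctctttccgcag
Shmt1: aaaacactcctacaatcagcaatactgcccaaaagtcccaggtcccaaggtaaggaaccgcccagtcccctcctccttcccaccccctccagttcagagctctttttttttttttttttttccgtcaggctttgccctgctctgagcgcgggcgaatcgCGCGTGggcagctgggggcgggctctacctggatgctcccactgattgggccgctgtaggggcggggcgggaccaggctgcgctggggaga
CACGTG was in 0 of the 9 genes' windows, against 7.15% of all 32851 promoter windows of 300 bases in the table. CATGTG (14.2% of all windows) and TGATGNAA (3.97%) were also in 0 of 9. CACGCG (9.27% of all windows) was in the windows of 3 genes, at -91 in Shmt1, at 39 in Shmt2 and at -148 and -46 in the windows of Psat1, counted from the annotated start. Mthfd1 held none of the 4 motifs. A match or its absence describes these letters in these windows.

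Mthfd1 was the only one of the 9 genes to pass the test over all genes, and it rose. Its CPM in null tumors had a lowest value of 61.5, a median of 102 and a highest of 159.8. In wild-type tumors the lowest was 30.1, the median 51.2 and the highest 66.2 CPM. Thus 8 of 9 null tumors lay above every wild-type tumor, and the exception was null tumor 9, at 61.5 CPM. Means were 104 ± 29.2 CPM (SD, n = 9) and 51.8 ± 12.8 CPM (n = 7). The fitted log2 difference was 1.01 with an SE of 0.20 (edgeR's quasi-likelihood test, adjusted p = 0.00577). Over all 14825 genes tested, 16% were called, 7.40% as higher and 8.64% as lower in null tumors, and 1 call among 9 members is near that background. Groups that did not overlap were found in 0 of 9 members, against 1.56% of all genes tested. Mthfd1 missed the threshold when wild-type tumors 2, 4 and 7 were left out, at 0.91 ± 0.22 (adjusted p = 0.0535). In that fit 1.68% of all genes were called, and 0 of 9 members, with 2 members at an unadjusted p under 0.05. A fit with that share as a covariate put Mthfd1 at 0.97 ± 0.30 (adjusted p = 0.183), with 0.0675% of all genes called. Other fits called 20.3% of all genes (DESeq2), 16.5% (voom), 13.3% (a length and GC correction), 1.90% (tumor number as a block), 17.2% (upper-quartile factors) and 16.5% (a stricter filter), and Mthfd1 passed in each of them. The fit with a block left out null tumors 8 and 9, whose numbers have no wild-type counterpart.

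Shmt1, the cytosolic serine hydroxymethyltransferase, did not pass at the threshold of 0.05. Null tumors ran from 43.2 through a median of 58.8 to 134 CPM. Wild-type tumors ran from 13.9 through a median of 33.2 to 63.8 CPM. All 9 null tumors exceeded the wild-type median and 4 of 9 exceeded every wild-type tumor, while wild-type tumors 1 and 7 lay within the null range. The log2 difference was 0.87 ± 0.31 (66.3 ± 27.2 against 36.3 ± 19 CPM, SD, n = 9 and 7; adjusted p = 0.0599). It passed with DESeq2 (0.88, adjusted p = 0.0317), with voom (1.15, adjusted p = 0.0168) and without either of wild-type tumors 1 (1.04, adjusted p = 0.0279) and 7 (1.05, adjusted p = 0.0395). The Shmt1 model shares 4.74% of its exon bases with Smcr8 on the opposite strand, and the strand setting of the counting is not given in the sources used here. Smcr8 was at 64.0 ± 12 and 45.3 ± 12.5 CPM in null and wild-type tumors (log2 difference 0.50, adjusted p = 0.0661); its part in the Shmt1 count was not tested.

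**Figure D1:**
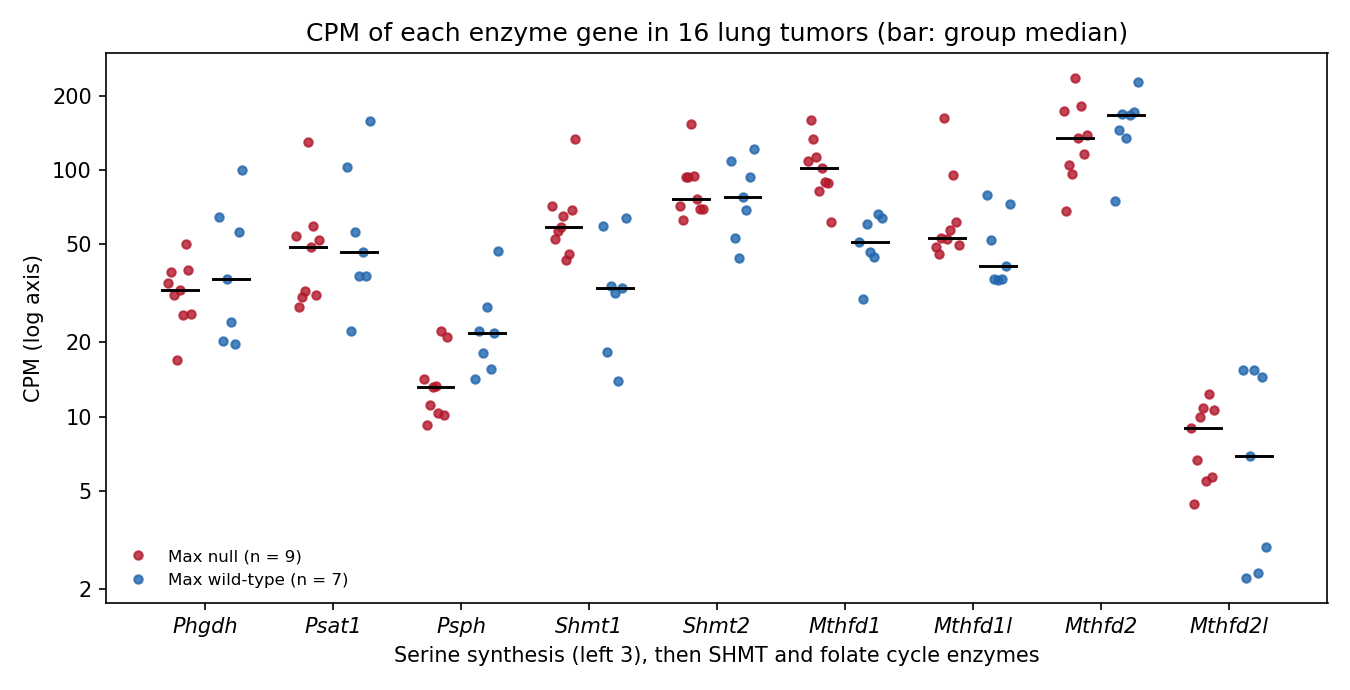
CPM of each of the 9 enzyme genes (log axis) in 9 Max null and 7 Max wild-type tumors; points are tumors and bars group medians. For Mthfd1, 8 of 9 null points lie above every wild-type point, whereas the groups overlap widely for Shmt2, Mthfd2, Phgdh and Psat1.

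The mitochondrial enzymes did not pass the test. Shmt2, the mitochondrial counterpart of Shmt1, had a lowest, median and highest value of 63.0, 76.7 and 154 CPM in null tumors. The wild-type values were 44.1, 77.9 and 122 CPM, and the group medians lay close together. Its log2 difference was 0.11 ± 0.23 (adjusted p = 0.778), with an approximate 95% interval, from its SE, of 0.793-fold to 1.46-fold.
Mthfd2, the mitochondrial dehydrogenase and cyclohydrolase, had a lowest, median and highest value of 68.6, 135 and 237 CPM in null tumors. In wild-type tumors these were 75.0, 168 and 229 CPM, and 3 of 9 null tumors exceeded the wild-type median. Its log2 difference was -0.17 ± 0.24 (adjusted p = 0.665; interval 0.641-fold to 1.24-fold).
Mthfd1l, which releases formate in mitochondria, had a lowest, median and highest value of 45.9, 53.3 and 163 CPM in null tumors. In wild-type tumors these were 35.8, 40.8 and 79.3 CPM. Although all 9 null tumors lay above the wild-type median, the log2 difference of 0.47 ± 0.28 did not pass (adjusted p = 0.262), and 4 of 7 wild-type tumors lay below every null tumor.

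Mthfd2l, the second mitochondrial dehydrogenase, was the least abundant of the 9 genes. Null tumors held 4.42, 9.02 and 12.4 CPM as lowest, median and highest value. Wild-type values were spread more widely, at 2.22, 6.93 and 15.5 CPM. In wild-type tumors 2, 5 and 7 it was at 2.22, 2.32 and 2.97 CPM, below every null tumor, and in wild-type tumors 1, 4 and 6 at 15.5, 15.5 and 14.5 CPM, above every null tumor. The coefficient of variation was 74.6% in wild-type and 34.1% in null tumors, and the means did not differ beyond this spread (8.35 ± 2.85 against 8.56 ± 6.39 CPM; log2 difference -0.04 ± 0.43, adjusted p = 0.96).

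The mitochondrial-to-cytosolic ratio of transcripts within a tumor passed as lower in null tumors for 2 of the 3 such pairs with all tumors. Neither passed when wild-type tumors 2, 4 and 7 were left out. This ratio cancels depth and was compared between groups with a two-sided exact permutation test over all 11440 splits of the tumors, adjusted over 4 ratios (pseudocount 0.5 CPM). The log2 ratio of Mthfd2 to Mthfd1 had a lowest, median and highest value of -1.21, 0.40 and 1.52 in null tumors and 0.55, 1.52 and 2.26 in wild-type tumors. Its mean was 0.38 ± 0.86 against 1.56 ± 0.54 (SD, n = 9 and 7), a difference of -1.19 (exact permutation p = 0.00603, adjusted 0.0241), and 5 of 9 null tumors lay below every wild-type tumor. Mthfd1 was known to be higher in these null tumors, so this ratio is not independent evidence of it. Mthfd1 is also the denominator of the pair Mthfd1l to Mthfd1. In wild-type tumors Mthfd2 exceeded Mthfd1 in all 7, and in null tumors 2, 3 and 4 the order of the CPM was the opposite.

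The log2 ratio of Shmt2 to Shmt1 ran from -0.94 through 0.67 to 1.23 in null tumors and from 0.38 through 1.28 to 2.27 in wild-type tumors. Its mean was 0.42 ± 0.67 against 1.24 ± 0.60, a difference of -0.82 (exact permutation p = 0.0215, adjusted 0.043), with 4 of 9 null tumors below every wild-type tumor. The lowest value belonged to null tumor 9, in which Shmt1 reached its highest level. Shmt1 itself differed by 0.87 and Shmt2 by 0.11, so this ratio too is not evidence independent of Shmt1, which did not pass over all genes. Mthfd1l to Mthfd1 was at -0.66 ± 0.72 against -0.07 ± 0.61 and did not pass (difference -0.59, exact permutation p = 0.104, adjusted 0.138). Mthfd2 to Mthfd2l, the ratio of the 2 mitochondrial dehydrogenases, was at 3.97 ± 0.41 against 4.44 ± 1.53 (difference -0.47, exact permutation p = 0.387, adjusted 0.387). When wild-type tumors 2, 4 and 7 were left out, the first pair differed by -0.95 (exact permutation p = 0.0643, adjusted 0.165) and Shmt2 to Shmt1 by -0.82 (exact permutation p = 0.0825, adjusted 0.165), so neither call held. Leaving out single tumors also ended the call of Shmt2 to Shmt1 in 8 of 16 cases (null tumors 1, 2, 8 and 9, wild-type tumors 2, 4, 5 and 6; highest adjusted p = 0.11, exact permutation) and that of Mthfd2 to Mthfd1 in 2 of 16 (wild-type tumors 2 and 5; highest adjusted p = 0.0615, exact permutation). Without null tumor 4 the ratio of Mthfd1l to Mthfd1 passed, at -0.74 (exact permutation, adjusted p = 0.0481).

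**Figure D2:**
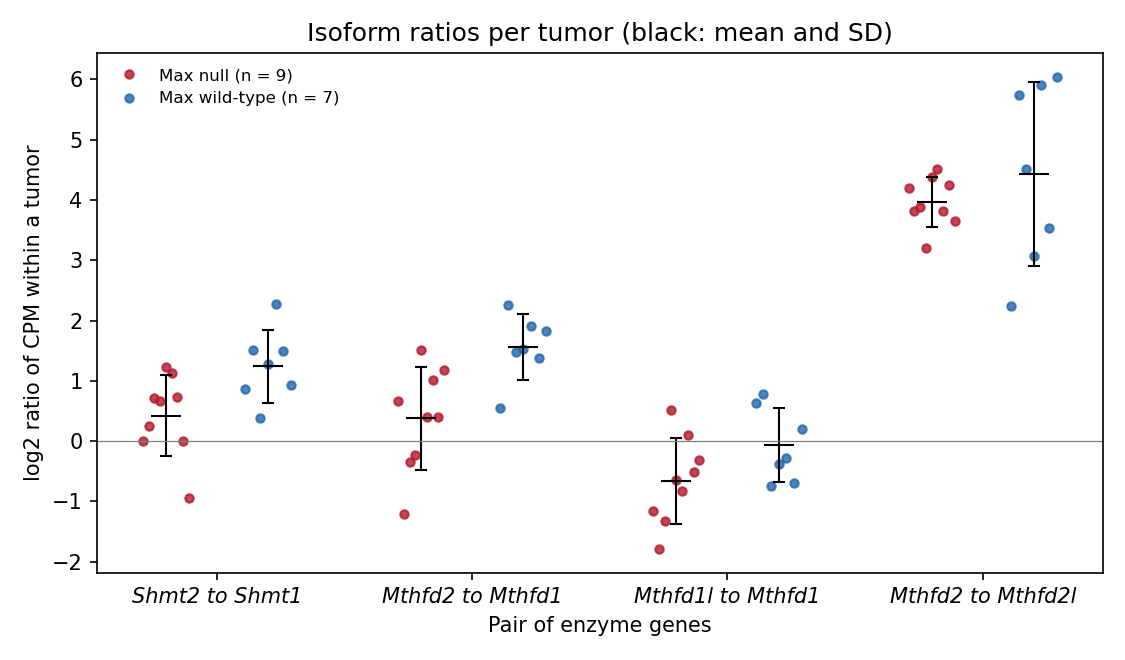
Log2 ratio of CPM of 2 enzyme genes within each tumor for 4 pairs; points are tumors, black bars mean and SD (9 Max null, 7 Max wild-type). The ratios of Shmt2 to Shmt1 and of Mthfd2 to Mthfd1 are lower in null tumors, by 0.82 and 1.19 on average, and the wild-type values of Mthfd2 to Mthfd2l spread from 2.24 to 6.05.

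Of the serine synthesis genes, 0 of 3 passed the edgeR test over all genes (1, Psph, at an unadjusted p under 0.05; 1, Psph, with DESeq2; 0 with voom). Psph, which performs the last step, had a lowest, median and highest value of 9.23, 13.3 and 22.3 CPM in null tumors. In wild-type tumors these were 14.2, 21.9 and 46.9 CPM, and 1 of 9 null tumors exceeded the wild-type median. Its log2 difference was -0.78 ± 0.27 (13.9 ± 4.74 against 23.9 ± 11.2 CPM, SD, n = 9 and 7; adjusted p = 0.0537).
The 3 wild-type tumors with the highest multiply aligned share, 7, 4 and 2, were also the 3 with the most Psph, at 46.9, 27.8 and 22.3 CPM. Without them the wild-type mean was 17.5 ± 3.38 CPM (n = 4) and the log2 difference -0.33 ± 0.26 (adjusted p = 0.524). With group means removed, Psph followed the multiply aligned share over the 16 tumors (Pearson r = 0.77, permutation p = 0.00013, adjusted over 9 members 0.00117; Spearman rho = 0.75, permutation p = 0.00168, adjusted 0.0151), and r was 0.63 without the 2 tumors farthest from the median share. The other 8 members did not pass this test (r from -0.049 for Mthfd1 to 0.34 for Shmt1, permutation p adjusted over the 9 members from 0.666 to 0.923). The Psph model, all its exons merged, shares 10.4% of its bases with Cct6a on the opposite strand. Of the 1733 bases of its longest protein-coding transcript, 452 (26.1%) matched Cct6a at 100% identity. Cct6a was at 200 ± 35.3 CPM in null and 251 ± 34.9 CPM in wild-type tumors (log2 difference -0.33, adjusted p = 0.106), and its part in the Psph count was not tested.

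**Figure D3:**
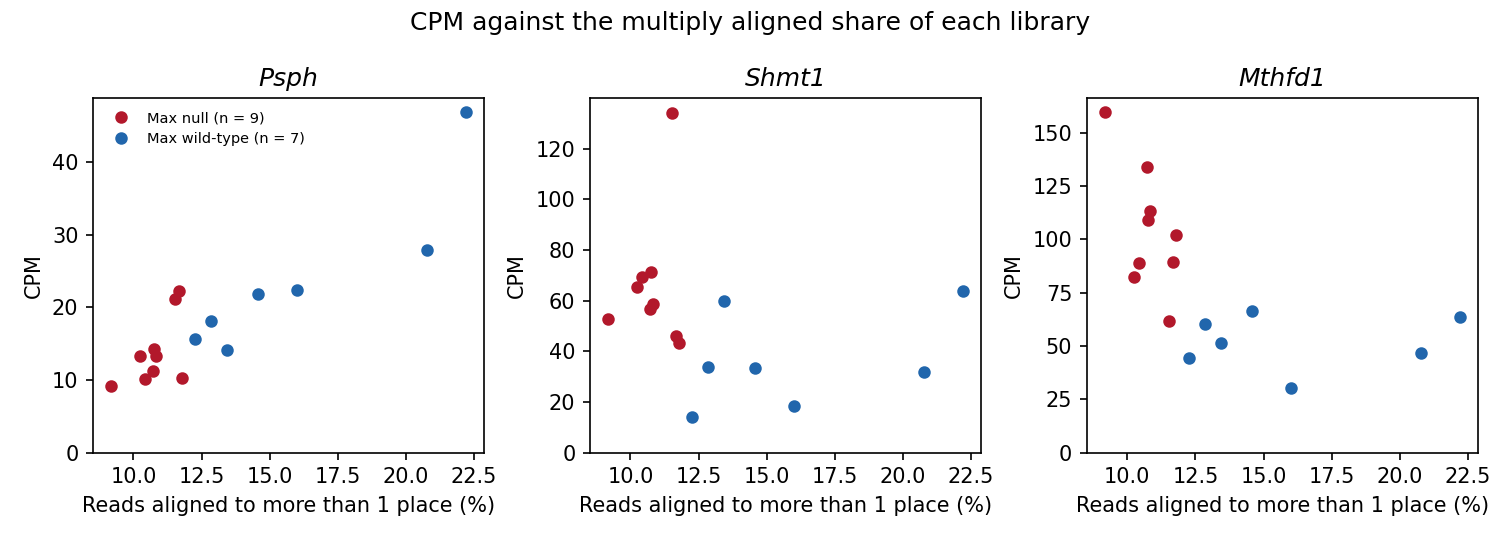
CPM of Psph, Shmt1 and Mthfd1 in each tumor against its multiply aligned share (%); red, 9 Max null; blue, 7 Max wild-type. The shares of the groups do not overlap, and Psph is highest, at 46.9 CPM, in the library with the highest share, 22.2%.

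Phgdh, the first enzyme of the pathway, had a lowest, median and highest value of 17.0, 32.6 and 50.2 CPM in null tumors. In wild-type tumors these were 19.8, 36.1 and 99.9 CPM. The log2 difference of -0.48 ± 0.32 did not pass (adjusted p = 0.307), and the wild-type spread was wide (coefficient of variation 64.7%, against 29.1% in null tumors). Phgdh is uncertain in level: in the GENCODE M21 transcripts 12 processed pseudogenes match at least 84.2% of its mRNA at 91.1% to 98.8% identity, and the files tally reads aligned to more than 1 place apart from the genes. The only such copy counted in the files, Gm8096, held 0 to 3 reads per library.
Psat1, the transaminase of the second step, had a lowest, median and highest value of 27.9, 48.8 and 129.7 CPM in null tumors. In wild-type tumors these were 22.3, 46.6 and 158 CPM. The log2 difference was -0.34 ± 0.39 (adjusted p = 0.57), and it was 0.030 without wild-type tumor 7.

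**Figure D4:**
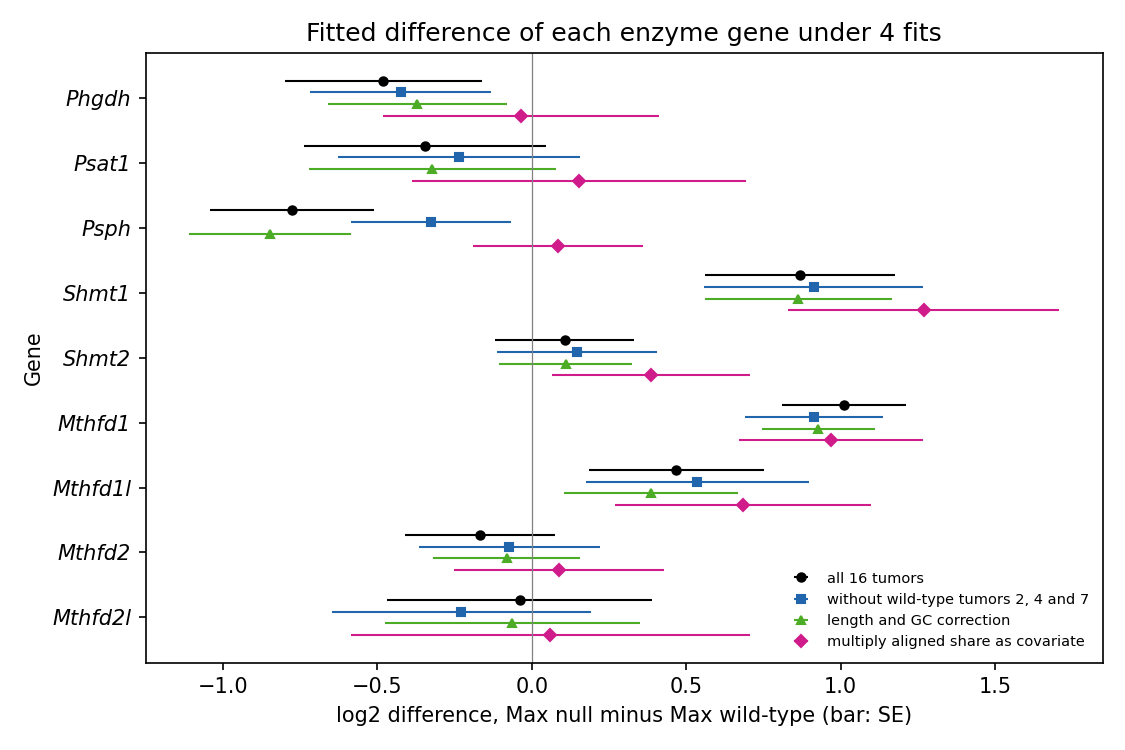
Fitted log2 difference (Max null minus Max wild-type; bars are SE) of each of the 9 genes in 4 fits, named in the key. Mthfd1 lies between 0.91 and 1.01 in the 4 fits, whereas Psph moves from -0.85 to 0.084.

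Per kilobase of exon (GENCODE M21 lengths), Mthfd2 had the highest mean level in both groups, at 40.0 ± 14.7 CPM per kilobase in null and 44.9 ± 13.4 in wild-type tumors, followed by Shmt2 at 28.1 ± 8.96 and 26.1 ± 9.19. These neighbors were in that order in 6 of 9 null and 6 of 7 wild-type tumors, less than 1 SD apart in the null group. In null tumors Mthfd1 (23.5 ± 6.58), Shmt1 (17.1 ± 6.99), Mthfd1l (15.7 ± 8.56), Phgdh (13.2 ± 3.84) and Psat1 (12.2 ± 7.42) followed, each within 1 SD of its neighbor. In wild-type tumors Phgdh (18.4 ± 11.9) and Psat1 (15.5 ± 11.3) stood above Mthfd1 (11.7 ± 2.88), Mthfd1l (11.4 ± 4.18) and Shmt1 (9.36 ± 4.89), again within the spread. Psph (3.21 ± 1.09 and 5.51 ± 2.58) and Mthfd2l (1.26 ± 0.43 and 1.29 ± 0.96 CPM per kilobase) were the lowest, and Psph exceeded Mthfd2l in all 16 tumors.

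Single tumors held several of the extremes. Wild-type tumor 7 was the highest of its group for 6 of 9 members (Phgdh, Psat1, Psph, Shmt1, Shmt2 and Mthfd2), with a summed level of 859 CPM over the 9 genes, where wild-type tumor 2 had 366. The TMM factor of wild-type tumor 7 was 0.748, outside the 0.936 to 1.07 of all other libraries, and a lower factor gives a higher CPM for the same reads. Its multiply aligned share was also the highest, at 22.2%. Scaling and tumor cannot be told apart in these values. Null tumor 5 was the highest of its group for Psat1, Shmt2 and Mthfd2 (sum 778 CPM). Null tumor 2 was the lowest of its group for 6 members (sum 470.3 CPM) while it was the highest for Mthfd1.

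No pair of members passed the test of correlation within groups. With group means removed from log2 CPM, 31 of 36 pairs correlated positively over 16 tumors (median Pearson r = 0.21), and 0 of 36 passed after adjustment by Pearson or Spearman, with 3 at an unadjusted p under 0.05 by each. When wild-type tumors 2, 4 and 7 were left out, 24 of 36 pairs were positive, the median r was 0.11 and 0 of 36 passed. The highest were Psat1 with Shmt2 (r = 0.65, permutation p = 0.0116, adjusted 0.372; rho = 0.54, permutation p = 0.0448, adjusted 0.43; r = 0.31 without the 2 tumors farthest from the median of Psat1), Phgdh with Psat1 (r = 0.59, permutation p = 0.0348, adjusted 0.372; rho = 0.41, permutation p = 0.14, adjusted 0.688; r = 0.44 without 2 tumors) and Psph with Mthfd2 (r = 0.58, permutation p = 0.0239, adjusted 0.372; rho = 0.60, permutation p = 0.0195, adjusted 0.43; r = 0.44 without 2 tumors). Among 11548 other genes, those most like a member on this measure (16 tumors; the highest of many, with no test) were Mxi1 and Ide for Psat1 (r = 0.93 and 0.89), Ube2l3 and Mtmr14 for Psph (0.92 and 0.92), Nt5dc2 and Paics for Shmt2 (0.92 and 0.87), and Gusb and Sh3bp4 for Mthfd1l (0.89 and 0.86). Elovl2 and Rcn2 were most like Mthfd2l (0.87 and 0.86), Plcb3 was among those most like Mthfd1 (0.85), and Npm1 and Tmem128 were most like Shmt1 (0.84 and 0.83). Usp39 and Ddit3 were most like Mthfd2 (0.84 and 0.84), and Eif4ebp1 was most like Phgdh (0.84).

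Around the members, 5 genes rose, 1 fell and 15 did not pass among the 21 tested of 25 genes that use or move folates (list median 0.32, against -0.03 over all genes tested and -0.04 over the 9 members). Over all genes tested, 16% were called, 7.40% as higher and 8.64% as lower. Mtr, methionine synthase, was at 14.9 CPM or more in every null tumor and at 14.4 CPM or less in every wild-type tumor (log2 difference 1.12 ± 0.22, adjusted p = 0.00548). Atic, which uses a folate-bound unit in the last steps of purine synthesis, also did not overlap, with a lowest null tumor of 117 CPM and a highest wild-type tumor of 111 CPM (0.87 ± 0.21, adjusted p = 0.0139); groups did not overlap with null above in 0.917% of all genes. Slc25a32, the mitochondrial folate carrier, rose by 0.79 ± 0.24 (27.9 ± 12.2 against 16.2 ± 2.68 CPM, adjusted p = 0.0369).
Tyms, thymidylate synthase, was at 78.4 ± 32.0 against 121 ± 51.2 CPM (log2 difference -0.63, adjusted p = 0.0989; named after its value was seen). Aldh1l1 and Slc46a1 were also called higher. Without wild-type tumors 2, 4 and 7 the list median was 0.098 and only Atic was called (0.74 ± 0.15, adjusted p = 0.0306), with Mtr at 0.85 (adjusted p = 0.0617) and Slc25a32 at 0.75.

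Of 14 tested genes of serine transport and use, 1 rose, Sfxn3, a member of the sideroflexin family of mitochondrial serine carriers, by 0.66 ± 0.18 (31.8 ± 6.15 against 20.1 ± 5.32 CPM, adjusted p = 0.0231), and 13 did not pass (list median 0.04). This 1 call of 14 stands beside 16% called over all genes. Sfxn3 was not called without wild-type tumors 2, 4 and 7 (0.64, adjusted p = 0.112).
Of 16 genes of the ATF4 response, a stress pathway known to induce Phgdh, Psat1, Shmt2 and Mthfd2, 3 rose, 2 fell and 11 did not pass (list median -0.17, with 16% of all genes called). Atf4 itself was lower in every null tumor (at most 242 CPM) than in any wild-type tumor (at least 251 CPM), a log2 difference of -0.72 ± 0.18 (adjusted p = 0.0163), against 0.648% of all genes with null wholly below. The call held without wild-type tumors 2, 4 and 7 (-0.87, adjusted p = 0.0444). Ddit3, a stress-induced transcription factor, fell by 1.30 ± 0.27 (17.3 ± 5.91 against 42.8 ± 19.6 CPM, adjusted p = 0.00672), and was -1.10 (adjusted p = 0.0617) without those 3 tumors. Slc7a5, an amino acid transporter, rose by a log2 difference of 1.06 ± 0.33 (adjusted p = 0.0393) and Sesn2 by 0.72 ± 0.24 (adjusted p = 0.0472), and Cth was also called higher. When wild-type tumors 2, 4 and 7 were left out, the list median was 0.023 and none of these 3 was called, with Slc7a5 at 0.74 (adjusted p = 0.282), Sesn2 at 0.50 (adjusted p = 0.278) and Cth at 1.56 (adjusted p = 0.0617). Slc7a5 was not called in 10 and Sesn2 in 13 of 16 fits that left out 1 tumor. None of the 4 members named as ATF4 targets passed with edgeR (0 of 4 at an unadjusted p under 0.05), DESeq2 or voom. Those 4 need not be all the members that ATF4 can induce, and the serine synthesis gene Psph was not counted among them. Psph was lower but not called by edgeR (-0.78, adjusted p = 0.0537) and was called by DESeq2 (-0.76, adjusted p = 0.0322). The edgeR fit that dropped wild-type tumors 2, 4 and 7 put Psph at -0.33 (adjusted p = 0.524). With group means removed, Psph and Atf4 had an r of 0.059 (permutation, adjusted p = 0.937). An effect of Atf4 on Psph was not tested.

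Genes of dividing cells were not called in this edgeR fit (0 of 12, list median -0.26), which called 16% of all genes tested. Of the 12, 2 were at an unadjusted p under 0.05 in edgeR, and 0 were called with DESeq2 and voom. Pcna was at 627 ± 177 CPM in null and 872 ± 181 CPM in wild-type tumors (adjusted p = 0.0982), and the summed level of the 12 genes ran from 2112 to 6662 CPM in null and 2272 to 5501 CPM in wild-type tumors.
Some markers of other cells were called, in a fit that called 16% of all genes tested. Of 12 tested immune markers 3 fell, Cd68, C1qa and C1qb (C1qb by 1.26 ± 0.27, adjusted p = 0.00809), with a summed level of 317 to 956 CPM in null and 296 to 907 CPM in wild-type tumors and no marker at 0. Of 10 alveolar type 2 markers 2 rose, Abca3 and Lpcat1 (sums 806 to 3386 and 209 to 2295 CPM), and of 8 alveolar type 1 markers 1 fell, Pdpn (295 to 864 and 199.5 to 499 CPM). The log2 difference was below 0 in 10 and above 0 in 2 of the 12 immune markers. The 2 above 0 were Lyz2 (0.40) and Csf1r (0.35), both uncalled, and Emr1 was at -0.03. It was above 0 in 8 and below 0 in 2 of the type 2 markers. Among type 1 markers 7 lay above 0, uncalled, so Pdpn went against the rest of its list. When wild-type tumors 2, 4 and 7 were left out, Abca3 was still called (0.92, adjusted p = 0.0427). The calls of Cd68 (-0.91, adjusted p = 0.0921), C1qa (-0.76, adjusted p = 0.201), C1qb (-1.14, adjusted p = 0.079), Lpcat1 (0.50, adjusted p = 0.239) and Pdpn (-0.83, adjusted p = 0.259) were lost. Of the markers of airway (7 tested), endothelial (9), fibroblast (9) and neuroendocrine cells (12), 0 were called by edgeR, with 2, 2, 2 and 4 at an unadjusted p under 0.05 and 1, 0, 1 and 2 called by DESeq2. Their part in the differences of the 9 enzyme genes was not tested.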

How the data were processed

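Members and gene lists were chosen with earlier results of these data known. The authors deposited raw counts for each gene symbol, 1 file per tumor. Tools listed in the submitters' processing notes are HTSeq 0.6.1, TopHat, TopHat2 2.0.12 and bcl2fastq 1.8.4, on build mm9; for the annotation and the strand setting, the answer is "not given in the sources used here". The 5 closing lines of each file, for reads assigned to no gene (29.2% to 45.6% of all tallies), stayed out. The lowest chi-square between any pair of libraries was 32.8 per degree of freedom, so each counted as 1 sample.

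Counts of all genes were fitted with edgeR 4.0.16 in R 4.3.3 (TMM, filterByExpr by group, quasi-likelihood F test), with Benjamini-Hochberg adjusted p over 14825 genes and a threshold of 0.05. SE is the log2 difference divided by the square root of F. The script was tested on simulated counts, in which 200 of 14764 genes were changed by a log2 difference of 1 in either direction. It called 32.5% of these, with 0 wrong signs and 4 false calls. The simulation held fewer changed genes than the 2378 called in the data, so its rate need not hold there. A gene that did not pass can therefore still differ between the groups. Correlations used log2(CPM + 0.5) and 100000 resamples within groups. Alternatives used DESeq2 1.42.0, limma 3.58.1 (voom), other scalings and filters, covariates and left-out tumors. Genes named beyond the members are, per list, up to 4 called with the smallest p or, with none called, up to 2 with the highest mean; Pcna and Mki67 were those of dividing cells, the latter at 754 ± 456 and 999 ± 590 CPM. For likeness, the 2 genes with the highest r at a mean of at least 5 CPM were taken. Other called genes were listed after their values were seen. Copies of the members were sought by alignment of transcripts (90% identity, 200 bases). Some genes that these rules name are not reported here.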

Additional observations from a re-analysis of the deposited data

Results flagged for a closer look

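The criterion was the gap between the most extreme tumor of a group and the next, divided by the range of the group. By chance about 1 in 20 groups meets it if values are normally distributed, and 26 were examined (9 genes and 4 ratios in each group). Genes were judged on CPM and not on its logarithm, so values skewed to the high side may meet it more often. In 5 of them 1 tumor lay far above the others of its group. Psat1 was at 129.7 CPM in null tumor 5, where the next null tumor had 59.5, and Shmt2 at 154 CPM in the same tumor, where the next had 95.1. Shmt1 was at 134 CPM in null tumor 9, with the next at 71.3, and Mthfd1l at 163 CPM in null tumor 4, with the next at 95.9. Psph was at 46.9 CPM in wild-type tumor 7, with the next at 27.8; this library also had the highest multiply aligned share, 22.2%. Without null tumor 5 the log2 difference of Shmt2 was -0.039.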

How the results depend on the processing

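The call of Mthfd1 held in 8 of 10 alternatives and in all 16 fits without 1 tumor (0.91 to 1.08, highest adjusted p = 0.0143), and failed with the multiply aligned covariate and without wild-type tumors 2, 4 and 7. Against 1 member called with all tumors in edgeR, 3 were called with DESeq2 (Psph, Shmt1 and Mthfd1), 2 with the 5 CPM filter, 2 with the length and GC correction, 2 with voom, 2 with upper-quartile factors, 0 with the multiply aligned covariate, 0 without the 3 wild-type tumors, and 1 to 3 without single tumors. Psph was the member added by the filter, the upper-quartile factors (-0.82) and the length and GC correction (-0.85, chosen after the data had been seen). Over all genes 2378 were called, 3612 with DESeq2, 10 with the multiply aligned covariate, 278 with the tumor number as a block, 256 without the 3 wild-type tumors, and 1471 to 3033 without single tumors (1471 without wild-type tumor 4, 1555 without wild-type tumor 7).

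Signs turned with the multiply aligned covariate for Psat1 (0.15), Psph (0.084), Mthfd2 (0.088) and Mthfd2l (0.061), and for Mthfd2l with voom (0.25) and the block (0.29). Without single tumors the differences ran from -0.21 to 0.18 for Mthfd2l, -0.65 to 0.030 for Psat1 and -0.039 to 0.22 for Shmt2. The cause was not tested. The ratios without the 3 wild-type tumors were -0.95 (Mthfd2 to Mthfd1) and -0.82 (Shmt2 to Shmt1), both not called; without single tumors they ran from -1.36 to -0.99 and -0.97 to -0.65, and Mthfd1l to Mthfd1 from -0.74 to -0.45. Pseudocounts of 0.1 and 2 CPM changed no call. Same-numbered tumors did not deviate together (r above 0.1 in 2 of 7 pairs, and 1 of 7 null tumors correlated best with its own number). The labels state no pairing by number, and these correlations cannot show how the tumors were numbered. The fit with the block also left out null tumors 8 and 9, so it differs from the main fit in its samples. Under it Mthfd1 was at 1.12 (edgeR, adjusted p = 0.0432) and was the 1 member called. Without null tumor 9 alone, and with no block, Mthfd1 was at 1.08. Counting error limits Mthfd2l most, at 19 reads in the lowest library.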

Other observations

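The levels of 4 regulators were set beside the members after the results above had been seen. Mycl, listed as Mycl1, was at 99.2 ± 67.7 CPM in null and 749 ± 974 CPM in wild-type tumors, Myc at 6.67 ± 2.25 and 8.55 ± 3.87 CPM, and Mycn at 9.39 ± 12.6 and 6.12 ± 4.44 CPM. With group means removed, 0 of the 36 pairs of a member with Myc, Mycl, Mycn or Atf4 passed adjustment over 16 tumors. The highest was Phgdh with Mycl (r = 0.64, permutation p = 0.0258, adjusted 0.417; rho = 0.62, permutation p = 0.0246, adjusted 0.443; r = 0.52 without the 2 tumors farthest from the median of Mycl). Mthfd1 with Mycl did not pass either (r = 0.54, permutation p = 0.0348, adjusted 0.417; rho = 0.42, permutation p = 0.114, adjusted 0.584; r = 0.41 without 2 tumors). Between groups, Mthfd1 was higher and Mycl lower in null tumors. An effect of Mycl on Mthfd1 was not tested. For Atf4 the 9 members ran from r = -0.20 to 0.26, and 0 of 9 reached an unadjusted p under 0.05 by permutation.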
